A study of Homo sapiens with 24 samples.

Results

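The response to knockdown of GCDH was set against itself in 2 human cancer cell lines: A375, a melanoma line, and SK-Hep1, which the labels call a liver line. The quantity described is, for each gene, the change from control siRNA to siGCDH in A375 minus the same change in SK-Hep1. It was taken from 12 of the 24 libraries of the series: 3 of A375 with siGCDH (batch 2), 3 of A375 with siControl (batch 2), 3 of SK-Hep1 with siGCDH and 3 of SK-Hep1 with siControl. Cells were harvested 48 hours after transfection, and all 12 libraries came from poly(A)-selected RNA and one directional kit, read single-end. The 12 libraries were taken by line, treatment and kit, and 15548 genes were tested, those averaging 1 TPM or more over the 12 libraries (TPM is a length-corrected share of a library's transcripts). Replicates were triplicate wells, so p-values measure the spread between wells, which may be technical. Neither siRNA is given by sequence in the sources used here, and the labels do not say whether both lines received the same siGCDH reagent. They also do not say whether the lines were transfected and prepared together. Line, reagent and preparation therefore cannot be told apart. The series' title ties GCDH in melanoma cells to NRF2, and the contrast asks which genes responded differently in A375 than in a line that is not melanoma.

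GCDH encodes glutaryl-CoA dehydrogenase, a mitochondrial flavoprotein on the route by which lysine and tryptophan are broken down, and it passes electrons to the carrier ETF, made of ETFA and ETFB. NRF2, encoded by NFE2L2, is a transcription factor that is held low by KEAP1 and turns on genes of antioxidant defence, glutathione synthesis and iron storage. An siRNA guide lowers its target by pairing along its length, and it can also lower other mRNAs when its seed, bases 2 to 8 of the guide, pairs with short words in their 3′ UTRs.

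The labels were checked against marker genes. Melanocyte markers summed to 659 to 723 TPM in A375 siGCDH and 642 to 679 TPM in A375 siControl libraries, mostly SOX10, S100A1 and S100B, and to at most 4.01 TPM in SK-Hep1. Of the 10 markers summed, 5 averaged 1 TPM or more in each A375 group, while TYR, TYRP1, DCT, PMEL and MLANA averaged less in both. Of 16 hepatocyte markers, 4 averaged 1 TPM or more in SK-Hep1 (SERPINA1, CYP2E1, AFP and ASGR1) and 10 were listed at 0 in all 6 SK-Hep1 libraries. Of 15 endothelial markers, ENG, EGFL7 and ROBO4 averaged 1 TPM or more there, while the defining markers PECAM1, CDH5 and VWF stayed below it. SK-Hep1 carried the epithelial keratin KRT19, at 1219 to 1321 TPM with siGCDH and 1245 to 1276 TPM with siControl, together with the mesenchymal filament gene VIM at 6002 TPM or more, and it is called by its line name here. Replicates correlated at 0.980 to 0.985 on the log2 scale within groups, and 14152 to 15331 genes reached 1 TPM in a library.

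The target fell in both lines and further in A375. GCDH had 3.91, 3.41 and 3.83 TPM in A375 siGCDH and 20.6, 22.7 and 19.3 TPM in A375 siControl libraries. SK-Hep1 libraries held 2.77, 3.25 and 2.25 TPM with siGCDH and 9.79, 9.46 and 8.97 TPM with siControl. Knockdown and control libraries did not overlap in either line, and the control level in A375 was above that in SK-Hep1. The remaining level was 17.8% of control in A375 and 29.3% in SK-Hep1. On the log2(TPM + 1) scale GCDH fell by 2.21 in A375 and by 1.48 in SK-Hep1, a difference of -0.74 ± 0.15 (SE; limma adjusted p = 0.00239), with a 95% interval from -1.07 to -0.40. Within each line the exact two-sided permutation test gave p = 0.1, the smallest that 3 libraries against 3 allow. DHTKD1, which acts before GCDH in lysine breakdown, had a difference of 0.09 ± 0.24 (SE; limma adjusted p = 0.78), with an interval from -0.44 to 0.62.

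The response to siGCDH differed widely between the lines. The difference passed the test (limma, Benjamini-Hochberg adjusted p of at most 0.05) for 7183 of 15548 genes (46.2%), and for 6459 (49.8%) of the 12973 that averaged 1 TPM or more in each line. The change was higher in A375 than in SK-Hep1 for 2698 genes (17.4%) and lower for 4485 (28.8%). A difference of at least 1 on the log2 scale was reached by 741 (4.77%) and 1126 (7.24%) of them. For 2531 genes (16.3%) every change that a pair of A375 libraries allows lay above every change that a pair of SK-Hep1 libraries allows, and for 4055 (26.1%) every one lay below. The split of higher and lower calls depended on scaling: 37.6% of called genes were higher with TPM as deposited, 48.0% with each library scaled to its median and 48.8% after quantile normalization. The median change over all genes was 0.015 in A375 and 0.14 in SK-Hep1, and the SK-Hep1 median was 0.02 after quantile normalization, so list medians below are set beside the median difference of all genes, -0.14. List counts stand likewise beside the 17.4% of all genes called higher and the 28.8% called lower. Counts within A375 stand beside the 18.2% of all genes that rose and the 16.9% that fell there. Those within SK-Hep1 stand beside 36.0% and 17.8%. Median scaling moved the medians of 32 lists by 0.04 to 0.17 (median shift 0.11). The medians of 24 of the 34 lists moved by more than 1.5 times or changed sign under another scaling or with 1 library left out, and some counts moved as well.

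More genes passed in SK-Hep1 than in A375. siGCDH changed 5463 genes in A375 (35.1%), of which 2830 rose (18.2%) and 2633 fell (16.9%). In SK-Hep1 it changed 8365 genes (53.8%), of which 5593 rose (36.0%) and 2772 fell (17.8%). This excess of rises depended on scaling: 4325 rose and 3545 fell in SK-Hep1 with median scaling, and 4058 and 3604 after quantile normalization. Among genes with a higher change in A375, 1152 (42.7%) had fallen in SK-Hep1 while their A375 change did not pass, and 607 (22.5%) had risen in A375 while their SK-Hep1 change did not pass. Among those called lower, 2228 (49.7%) had risen in SK-Hep1 while the A375 change did not pass, and 723 (16.1%) had fallen in A375 while the SK-Hep1 change did not pass. Changes of opposite sign, each past the test, were found for 1491 genes (9.59%), 536 (3.45%) that rose in A375 and fell in SK-Hep1 and 955 (6.14%) the other way. Across the 15548 genes the 2 sets of changes, from disjoint libraries, had a Spearman correlation of 0.10.

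**Figure D1:**
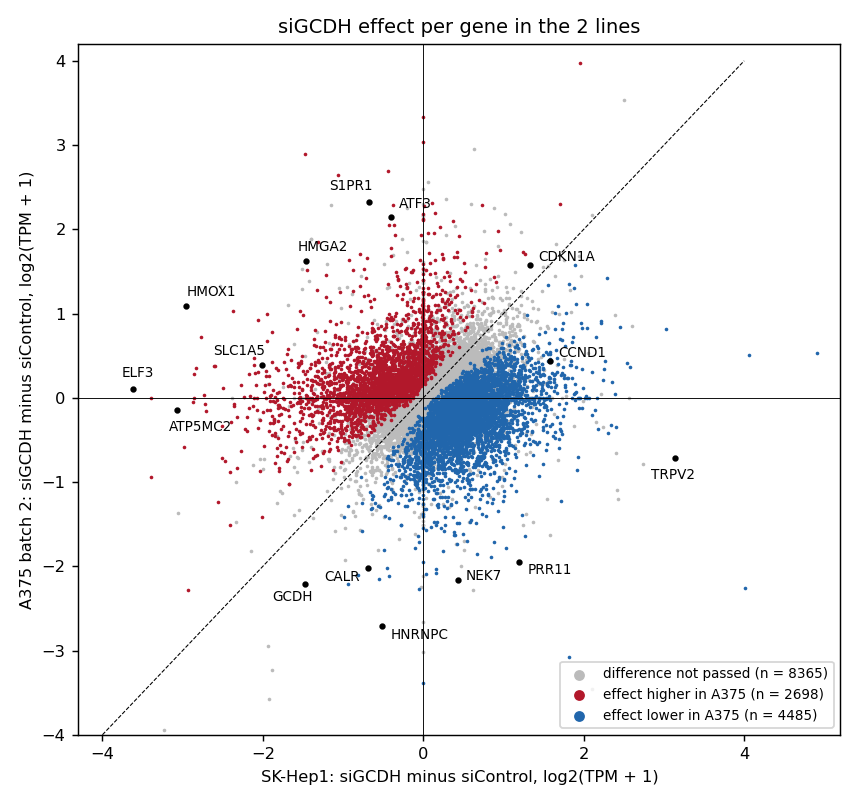
Change with siGCDH on the log2(TPM + 1) scale in A375 (vertical axis) and SK-Hep1 (horizontal axis), 1 point a gene. Red points are the 2698 genes with a higher change in A375, blue points the 4485 with a lower one, grey points did not pass, and the dashed line marks equal change: HMOX1 sits at the upper left and TRPV2 and PRR11 at the lower right.

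HMOX1, the heme-degrading enzyme and a known NRF2 target, showed the largest difference among the named genes, and its 2 changes had opposite signs. It had 85, 84.5 and 89.3 TPM in A375 siGCDH and 40.3, 41.8 and 37.9 TPM in A375 siControl libraries. In SK-Hep1 it had 3.98, 3.86 and 5.78 TPM with siGCDH and 40.9, 43 and 40.2 TPM with siControl. All A375 knockdown libraries lay above their controls and all SK-Hep1 knockdown libraries far below theirs, from control levels that were alike. The difference was 4.04 ± 0.15 (SE; limma adjusted p = 9.5e-09), made of a rise of 1.09 in A375 and a fall by 2.95 in SK-Hep1.

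The other leading genes with a higher change in A375 fell into genes that moved in both lines and genes that moved mainly in SK-Hep1. HMGA2, an architectural chromatin protein of embryonic and tumour cells, had 404, 352 and 389 TPM in A375 siGCDH and 121, 127 and 119.9 TPM in A375 siControl libraries. SK-Hep1 values were 49.7, 49.5 and 41.4 TPM with siGCDH and 119.8, 135 and 138 TPM with siControl. Its groups did not overlap in either line and moved apart, with a difference of 3.09 ± 0.11 (SE; limma adjusted p = 7.2e-09). S1PR1, a receptor for sphingosine-1-phosphate, had 13.3, 9.97 and 11.6 TPM in A375 siGCDH and 1.6, 1.25 and 1.65 TPM in A375 siControl libraries. In SK-Hep1 the values were 49.9, 53.1 and 51.8 TPM with siGCDH and 80.5, 91 and 78.1 TPM with siControl. The gain was from a low level in A375, and SK-Hep1 kept the higher level in every library, with a difference of 3.01 ± 0.15 (SE; limma adjusted p = 6.07e-08) that was 1.99 with a pseudocount of 5. PEG10, an imprinted gene derived from a retrotransposon, averaged 3.53 ± 0.34 TPM in A375 siGCDH, 1.78 ± 0.551 TPM in A375 siControl, 18.9 ± 2.34 TPM in SK-Hep1 siGCDH and 134 ± 5.77 TPM in SK-Hep1 siControl libraries (SD, n = 3 each), and most of its difference of 3.49 ± 0.19 (SE) came from SK-Hep1. LINC03061, a long non-coding RNA, rose by 1.85 in A375 and fell by 1.31 in SK-Hep1, where SYNGR2, a vesicle membrane protein, fell by 2.61 against a rise of 0.37 in A375. PRDM1, a transcriptional repressor known from plasma cells, and DTNA, a dystrophin-associated protein, had at most 10.6 and 5.93 TPM in any library, with differences of 2.93 ± 0.27 (SE) and 2.97 ± 0.37 (SE); with a pseudocount of 5 these were 1.56 and 1.24.

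3 further genes of this group fell steeply in SK-Hep1, with much smaller changes in A375. ATP5MC2, a subunit c gene of the mitochondrial ATP synthase, had 479, 485 and 485 TPM in A375 siGCDH and 553, 538 and 512 TPM in A375 siControl libraries. The SK-Hep1 libraries had 92.2, 91.5 and 80.3 TPM with siGCDH and 747, 757 and 727 TPM with siControl. All SK-Hep1 knockdown libraries lay far below their controls, a fall by 3.07 on the log2 scale, while the A375 groups differed by a fall by 0.14. The A375 fall passed with TPM as deposited (limma adjusted p = 0.0438) but not with median scaling (limma adjusted p = 0.0657). CPNE1, a calcium-dependent lipid-binding protein whose locus overlaps RBM12, averaged 154 ± 10.2 TPM in A375 siGCDH, 120.1 ± 7.43 TPM in A375 siControl, 13.5 ± 3.23 TPM in SK-Hep1 siGCDH and 101 ± 12.4 TPM in SK-Hep1 siControl libraries (SD, n = 3 each), with a difference of 3.19 ± 0.21 (SE; limma adjusted p = 4.47e-07). JUND, a subunit of the AP-1 transcription factor, averaged 94.6 ± 3.97 TPM with siGCDH and 73 ± 11.8 TPM with siControl in A375 and 15.5 ± 0.841 TPM with siGCDH and 99.3 ± 11.3 TPM with siControl in SK-Hep1 (SD, n = 3 each), with a difference of 2.98 ± 0.15 (SE; limma adjusted p = 8.2e-08). SNHG25, a host of small nucleolar RNAs, had 8.47, 7.12 and 12.5 TPM in A375 siGCDH and 8.06, 1.69 and 4.05 TPM in A375 siControl libraries. It was listed at 0 in all SK-Hep1 siGCDH libraries and had 7.85, 0.87 and 7.31 TPM in SK-Hep1 siControl libraries, a spread within groups that leaves no fold to give.

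Among genes with a lower change in A375, TRPV2 and PRR11 led. TRPV2, a calcium-permeable channel, had 13.9, 13.6 and 15.6 TPM in A375 siGCDH and 23.5, 22.3 and 27.1 TPM in A375 siControl libraries. SK-Hep1 libraries held 79.2, 76.5 and 76.1 TPM with siGCDH and 8.07, 6.61 and 9.19 TPM with siControl. Its level in SK-Hep1 knockdown libraries exceeded every other library, while A375 knockdown libraries lay under their controls. The difference was -3.85 ± 0.15 (SE; limma adjusted p = 1.33e-08), the change being -0.72 in A375 and 3.14 in SK-Hep1. PRR11, a cell-cycle-linked proline-rich protein, had 14.1, 12.3 and 13 TPM in A375 siGCDH and 52.4, 54.8 and 52.8 TPM in A375 siControl libraries. In SK-Hep1 it had 151, 166 and 179 TPM with siGCDH and 71.3, 65.6 and 77.8 TPM with siControl. Groups did not overlap in either line and moved in opposite directions, with a difference of -3.14 ± 0.11 (SE; limma adjusted p = 4.78e-09). PRR11-AS1, its antisense partner, moved the same way (-1.64 in A375, 1.27 in SK-Hep1), and since the strand setting of the counting is not given in the sources used here, reads of the pair cannot be told apart.

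DEPDC1, a protein of dividing cells, OGFRL1, whose product resembles an opioid growth factor receptor, and ZBTB18, a transcriptional repressor, also fell in A375 and rose in SK-Hep1. DEPDC1 averaged 11.8 ± 1.61 TPM in A375 siGCDH, 42.8 ± 1.36 TPM in A375 siControl, 37.1 ± 3.53 TPM in SK-Hep1 siGCDH and 17.8 ± 2.77 TPM in SK-Hep1 siControl libraries (SD, n = 3 each). OGFRL1 averaged 1.05 ± 0.0723 TPM in A375 siGCDH, 6.61 ± 0.407 TPM in A375 siControl, 30.3 ± 2.89 TPM in SK-Hep1 siGCDH and 16.5 ± 2.6 TPM in SK-Hep1 siControl libraries, with a difference of -2.73 ± 0.16 (SE; limma adjusted p = 1.98e-07) that was -1.66 with a pseudocount of 5. ZBTB18 changed by -0.70 in A375 and rose by 1.93, the larger part, in SK-Hep1. NEK7, a kinase of the NLRP3 inflammasome and of mitosis, had 10.9, 7.84 and 7.22 TPM in A375 siGCDH and 44.2, 41.5 and 39.4 TPM in A375 siControl libraries. SK-Hep1 values were 151, 179.6 and 179 TPM with siGCDH and 117, 133 and 126 TPM with siControl. All A375 knockdown libraries lay far below control, a fall by 2.16, and in SK-Hep1 the smaller rise of 0.43 also passed. SLC25A13, the mitochondrial aspartate-glutamate carrier, fell by 1.71 in A375 and rose by 0.88 in SK-Hep1. CDKN1C, a cell-cycle inhibitor, and TBC1D7, a subunit of the TSC complex, moved likewise, with differences of -2.53 ± 0.24 (SE) and -2.28 ± 0.15 (SE). ITGB2, a leukocyte integrin subunit, had at most 8.76 TPM in any library. Its A375 change of 0.05 did not pass (limma adjusted p = 0.79), it rose by 2.39 in SK-Hep1, and its difference of -2.34 was -1.18 with a pseudocount of 5.

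**Figure D2:**
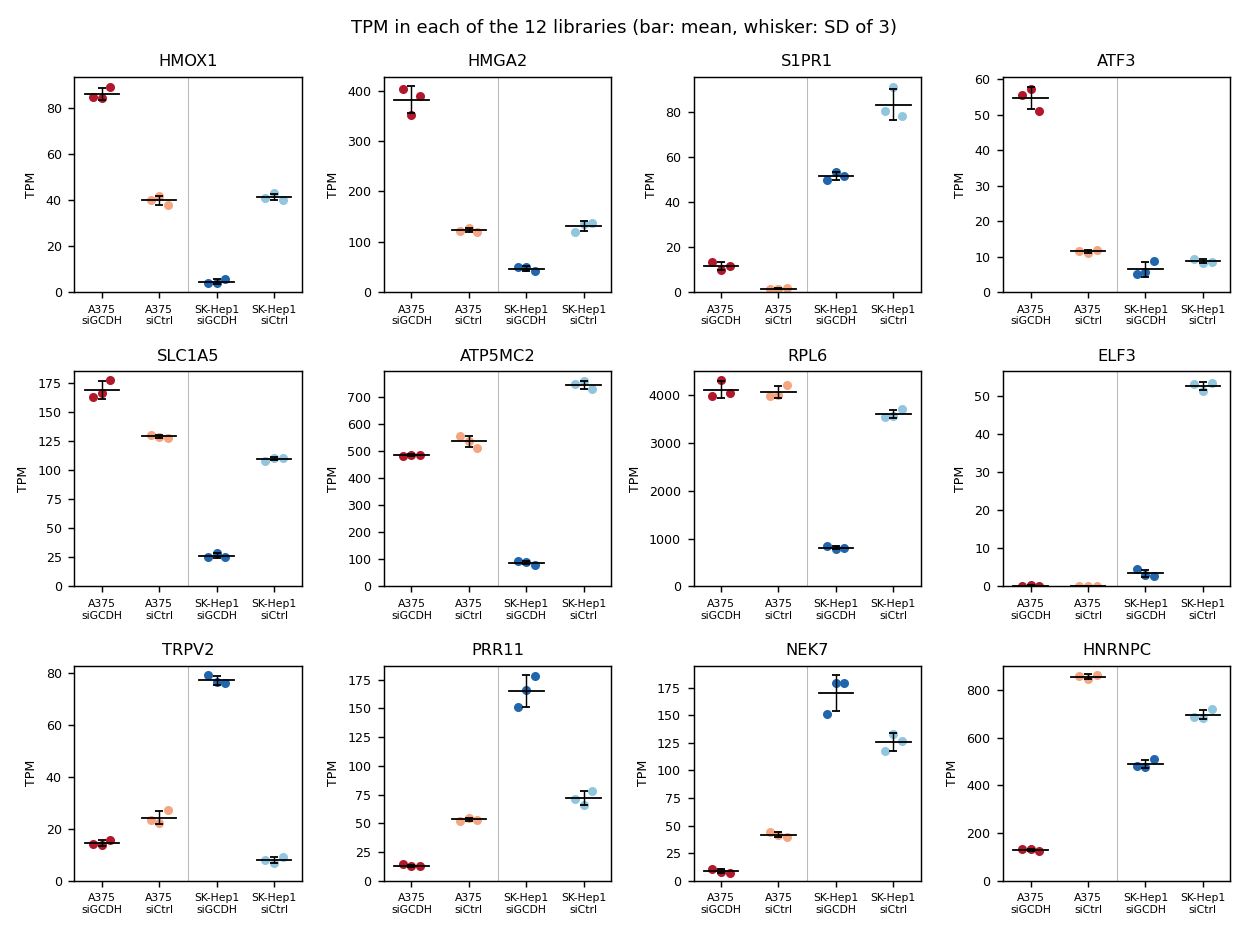
TPM of 12 genes in each library: points are the 3 libraries of a group, bars the mean and whiskers the SD, with A375 siGCDH and siControl to the left of the grey line and SK-Hep1 siGCDH and siControl to the right. HMOX1, HMGA2 and S1PR1 go up with siGCDH in A375 and down in SK-Hep1, TRPV2, PRR11 and NEK7 the other way, ATP5MC2 and RPL6 drop in SK-Hep1, and HNRNPC drops to 125 to 133 TPM in A375.

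724 called genes had a mean below 1 TPM in 1 of the lines, 340 in SK-Hep1 and 384 in A375, so that in that line there was little of the transcript to change. ELF3, an epithelial transcription factor, had no more than 0.44 TPM in any A375 library, and 4.54, 3.05 and 2.71 TPM in SK-Hep1 siGCDH and 53, 51.2 and 53.4 TPM in SK-Hep1 siControl libraries. CXCL6, a neutrophil chemokine, was listed at 0 in all 6 A375 libraries and had 2.69, 2.35 and 2.49 TPM with siGCDH and 35.6, 34.7 and 37.1 TPM with siControl in SK-Hep1. PADI2, a peptidylarginine deiminase, and PKD1L1-AS1, an antisense RNA, followed the same pattern, the RNA being listed at 0 in all of A375. NUPR1, a stress-induced chromatin protein, was low in both lines, with 10.3, 9.43 and 9.04 TPM in A375 siGCDH, 2.89, 1.8 and 4.26 TPM in A375 siControl, 0.02, 0 and 0.24 TPM in SK-Hep1 siGCDH and 1.04, 1.86 and 1.68 TPM in SK-Hep1 siControl libraries. In the other direction ZNF185, an actin-associated LIM protein, had at most 1.46 TPM in A375, against 92, 101 and 98.2 TPM with siGCDH and 25.5, 24.4 and 25.4 TPM with siControl in SK-Hep1. ADTRP, FOLR3, SNAP25 and LINC02298 rose likewise in SK-Hep1, by 1.69 to 2.40 on the log2 scale.

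Short words in 3′ UTRs differed between the genes that fell in each line. Every 7-letter word held by at least 500 genes (10458 words) was searched on the sense strand of the annotated 3′ UTRs of 9005 protein-coding genes with at least 5 TPM in each line, and words were ranked by the median change of the genes that hold them. In A375 the lowest medians belonged to ACTGAGA, held by 1122 genes (12.5%; median change -0.15 in A375 and 0.15 in SK-Hep1), and CTGAGAA, held by 1548 genes (17.2%; -0.12 and 0.15), which overlap by all but a letter. In SK-Hep1 they belonged to TCCTCAA, held by 921 genes (10.2%; -0.02 in A375 and -0.07 in SK-Hep1), and ATCCTCA, held by 905 genes (10.1%; -0.03 and -0.06) which overlap likewise. The words were picked on these 12 libraries and get no test. The sites below, in hg38 coordinates from GENCODE 29 with the word in capitals, are from genes described above: both words found in GCDH, then genes that fell in A375, then genes that fell in SK-Hep1.
GCDH, coding, chr19:12897349-12897376, plus strand: aagctggcagacatgctcACTGAGAtta
GCDH, coding, chr19:12891878-12891905, plus strand: cagctgaccacagatgagATCCTCAtca
PRR11, 3′ UTR, chr17:59202451-59202474, plus strand: agctacttaggaagCTGAGAAggg
DEPDC1, 3′ UTR, chr1:68476866-68476889, minus strand: aaatgaagccatatCTGAGAAtgt
ZBTB18, 3′ UTR, chr1:244057455-244057476, plus strand: aataaattatatgaACTGAGAa
NEK7, 3′ UTR, chr1:198320848-198320871, plus strand: tgttcatgaagatgACTGAGAtgg
SLC25A13, 3′ UTR, chr7:96120509-96120532, minus strand: tacagacagaaaaaACTGAGAtgt
HMOX1, 3′ UTR, chr22:35393832-35393855, plus strand: ccctgcccttcagcATCCTCAgtt
CPNE1, 3′ UTR, chr20:35626208-35626231, minus strand: gaggctgtggcaagTCCTCAAtcc
HMGA2, 3′ UTR, chr12:65964831-65964854, plus strand: cttaaggataatttTCCTCAAtca
S1PR1, 3′ UTR, chr1:101240434-101240457, plus strand: gttcatttggccccTCCTCAAaga
ELF3, 3′ UTR, chr1:202015577-202015600, plus strand: ttttatctggtgccTCCTCAAacc
CXCL6, 3′ UTR, chr4:73838545-73838568, plus strand: aattcatcatttagTCCTCAAaat

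GCDH itself held 1 copy of ACTGAGA and 1 of ATCCTCA in its 1956-base transcript, both in coding sequence, and no copy of the other pair. Of 127 searched genes that fell by at least 1 in A375 and were called lower in the difference, 81 (63.8%) held an A375 word, against 22.7% of all searched genes. Of 316 that fell by at least 1 in SK-Hep1 and were called higher, 128 (40.5%) held a SK-Hep1 word, against 16.5% of all searched genes. Both pairs of words were picked for low changes in these same libraries, so an excess among the falling genes was built into the choice. The groups were not matched for 3′ UTR length. SK-Hep1 words were held by 18.9% of the A375 group, and A375 words by 18.4% of the SK-Hep1 group. Genes with A375 words only (1427) had a median change of -0.11 in A375 and 0.20 in SK-Hep1, those with SK-Hep1 words only (869) of 0.03 and -0.09, and those with neither (6094) of 0.04 and 0.17. Among the named genes searched, 27 held an A375 word, of which 19 fell and 4 rose in A375, and 20 held a SK-Hep1 word, of which 13 fell and 7 rose in SK-Hep1. The risers included SPARC in A375, with 2 A375 words, and ALDH7A1, SERPINA1 and ZMAT3 in SK-Hep1, with 2 SK-Hep1 words each. Several of the steepest falls carried no such word in the 3′ UTR searched, among them ATP5MC2, JUND and SYNGR2 in SK-Hep1 and HNRNPC in A375. Whether the words match the seed of any siRNA used was not tested, since no siRNA sequence is given in the sources used here.

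Libraries outside the contrast were read beside it. A375 batch 1, 3 siGCDH and 3 siControl libraries of the same line made with a 3′ tag kit, changed 1018 of 12868 genes (7.91%), 152 up (1.18%) and 866 down (6.73%). In the 6 libraries labelled SKBR3 10236 of 16494 genes changed (62.1%), 7805 up (47.3%) and 2431 down (14.7%). These libraries go against their label: ERBB2, which the SKBR3 breast line is known to carry amplified, stood at 39.0 to 45.2 TPM with siGCDH and 23.7 to 28.0 TPM with siControl, and the epithelial keratin KRT19 at no more than 0.68 TPM. Across genes, changes in A375 batch 2 and batch 1 had a Spearman correlation of 0.47 (11842 genes), and changes in SK-Hep1 and the SKBR3-labelled libraries one of 0.51 (13646 genes), while the other pairs stood between 0.07 and 0.11. Of all genes measured in both, 65.7% were below control in batch 1 and 31.9% in the SKBR3-labelled libraries. Of 163 measured genes that fell by at least 1 in A375 batch 2 and were called lower, 162 were below control in batch 1 (median -1.19) and 72 of 168 in SKBR3-labelled libraries. Of 385 measured genes that fell by at least 1 in SK-Hep1 and were called higher, 334 were below control in SKBR3-labelled libraries (294 passed the test) and 265 of 371 in A375 batch 1, where the median change of these genes was -0.25, beside -0.21 for all genes there. HMOX1 was one of them, at -2.17 in SKBR3-labelled libraries and 0.24 in A375 batch 1 (limma adjusted p = 0.525). Of genes that rose by at least 1 in A375 and were called higher, 111 of 126 measured were above control in batch 1 and 81 of 110 in SKBR3-labelled libraries, beside 34.3% and 68.1% of all genes. Of those that rose by at least 1 in SK-Hep1 and were called lower, 443 of 472 were above control in SKBR3-labelled libraries and 140 of 359 in batch 1. Genes with SK-Hep1 words only had a median change of -0.01 in the SKBR3-labelled libraries, beside 0.18 for genes with neither word, and genes with A375 words only a median of -0.30 in batch 1, beside -0.22.

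**Figure D3:**
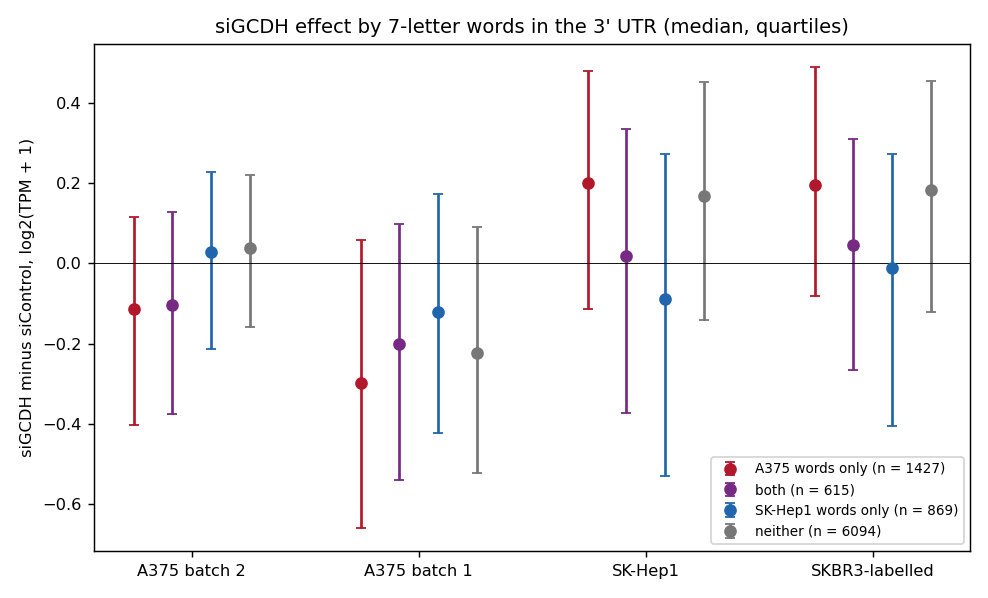
Change with siGCDH (log2 scale) in 4 pairs of groups for genes whose 3′ UTR holds A375 words only (red), both kinds (purple), SK-Hep1 words only (blue) or neither (grey); points are medians over genes and bars run between quartiles. Genes with A375 words only have the lowest median in both A375 batches, and genes with SK-Hep1 words only the lowest in SK-Hep1 and in the SKBR3-labelled libraries.

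Genes of NRF2 itself and of its antioxidant programme did not all move the same way, though far more NRF2 targets fell than rose in A375. NFE2L2 averaged 99.1 ± 4.51 TPM in A375 siGCDH, 77.7 ± 1.58 TPM in A375 siControl, 85.1 ± 4.23 TPM in SK-Hep1 siGCDH and 79.7 ± 3.18 TPM in SK-Hep1 siControl libraries (SD, n = 3 each), a rise of 0.35 in A375 that passed and 0.09 in SK-Hep1 that did not, with a difference of 0.25 ± 0.07 (SE; limma adjusted p = 0.0143). Of 14 tested genes of NRF2 and its regulators, 1 had a higher and 7 a lower change in A375, with a median difference of -0.26 that was -0.14 with median scaling and -0.11 without genes holding a word. MAFG, a small partner of NRF2, RBX1, a ring protein of its ubiquitin ligase, and SQSTM1, which binds KEAP1, were among the lower ones, at -1.07 ± 0.10 (SE), -0.59 ± 0.10 (SE) and -0.70 ± 0.05 (SE). Of 40 tested NRF2 targets, 11 had a higher and 17 a lower change in A375, with a median of -0.15, close to that of all genes. Without genes holding a word the median of the targets was -0.27, beside -0.14 for all genes kept. In A375 5 of these targets rose and 23 fell, with a median change of -0.36, where 18.2% of all genes rose and 16.9% fell. In SK-Hep1 15 of the targets rose and 15 fell, or 7 and 18 with median scaling. The ferritin genes, which store iron, fell in A375 and rose in SK-Hep1: FTH1 had 2988, 3133 and 3007 TPM in A375 siGCDH and 5967, 5895 and 6034 TPM in A375 siControl libraries. In SK-Hep1 the values were 2486, 2314 and 2361 TPM with siGCDH and 1853, 1909 and 1857 TPM with siControl. FTL did the same, at -0.53 in A375 and 0.61 in SK-Hep1. HMOX1 moved opposite to them in both lines.

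Listed genes of lysine breakdown, of the electron carrier that GCDH feeds and of related mitochondrial functions had a lower change in A375 where they differed. Of 19 tested, none had a higher and 9 (47.4%) a lower change, beside 17.4% and 28.8% of all genes. The siRNA target GCDH itself was counted among the 19 and among the 9. So were HADHB, of fatty acid oxidation, and the deacylase SIRT5, whose change passed in neither line. The median difference was -0.24, and scaling to the library median gave 2 higher and 6 lower, with a median of -0.12. The median was -0.12 without A375 siGCDH replicate 3 and -0.13 without SK-Hep1 siGCDH replicate 3. ALDH7A1, the antiquitin dehydrogenase upstream of GCDH, had 56.8, 48.8 and 45.6 TPM in A375 siGCDH and 111, 122 and 107 TPM in A375 siControl libraries. The SK-Hep1 libraries had 195, 205 and 206 TPM with siGCDH and 125, 113 and 108 TPM with siControl. A375 knockdown libraries held less than control, and SK-Hep1 knockdown libraries more, with a difference of -1.96 ± 0.11 (SE; limma adjusted p = 2.14e-07). ETFA and ETFB also fell in A375, by 0.61 and 0.55, and ETFB rose by 0.69 in SK-Hep1. ETFA's rise of 0.19 in SK-Hep1 passed with TPM as deposited, but not with median scaling (limma adjusted p = 0.511) or quantile normalization (limma adjusted p = 0.265).

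Respiratory chain genes had, for the most part, a lower change in A375. Of 45 nuclear genes of the respiratory chain and ATP synthase, 1 had a higher and 30 a lower change in A375, with a median of -0.34. In A375 23 of the 45 fell, beside 16.9% of all genes, and in SK-Hep1 27 rose, beside 36.0%. Both held for 13 of them, beside 6.14% of all genes. Median scaling gave 1 higher and 21 lower (median -0.22), with 16 rising in SK-Hep1. SDHC, a subunit of succinate dehydrogenase, fell by 0.55 in A375 and rose by 0.44 in SK-Hep1, COX7A2 of cytochrome oxidase had a difference of -0.77 ± 0.07 (SE), and COX5A one of -0.53 ± 0.05 (SE). NDUFA2, a complex I subunit, was the single higher member, and it fell in SK-Hep1. Of 13 mitochondrially encoded genes 1 was higher and 6 lower, but the median of this list was 0.02, and it was 0.13 with 4 higher and 3 lower under median scaling and -0.05 after quantile normalization. In the citric acid cycle list 4 of 24 were higher (16.7%) and 9 lower (37.5%), beside 17.4% and 28.8% of all genes. The median of this list was -0.10, or 0.01 with median scaling. MDH1, a malate dehydrogenase, fell in A375 and rose in SK-Hep1, with a difference of -1.39 ± 0.10 (SE). GLUD1, which makes glutamate from 2-oxoglutarate or the reverse, fell by 1.35 in SK-Hep1 with a difference of 1.25 ± 0.06 (SE). Glycolysis and hypoxia genes split 9 to 12 of 30: ENO1 rose by 0.11 in A375, a rise that did not pass with median scaling, and fell by 1.05 in SK-Hep1, while SLC2A1, the glucose transporter, rose by 1.31 in SK-Hep1, with a difference of -1.49 ± 0.07 (SE), and PGK1 fell by 0.38 in A375 and rose by 0.43 in SK-Hep1.

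Most genes of mitosis fell in A375 and rose in SK-Hep1. Of 36 mitosis and spindle genes 1 had a higher and 29 a lower change in A375, with a median difference of -0.83. In A375 1 rose and 25 fell, beside 18.2% and 16.9% of all genes. In SK-Hep1 27 rose and 3 fell, beside 36.0% and 17.8%. Falling in A375 and rising in SK-Hep1 was found for 20 of them, beside 6.14% of all genes. HMMR, a spindle-binding protein, had 25, 25.2 and 28.8 TPM in A375 siGCDH and 55.6, 50.3 and 50.7 TPM in A375 siControl libraries. SK-Hep1 libraries held 37.2, 37.2 and 43.5 TPM with siGCDH and 19.5, 18.9 and 18.5 TPM with siControl. Its groups did not overlap in either line, and the difference was -1.97 ± 0.11 (SE; limma adjusted p = 1.56e-07). NDC80, of the outer kinetochore, fell by 0.51 in A375 and rose by 1.19 in SK-Hep1, and KIF23, a kinesin of cytokinesis, had a difference of -1.25 ± 0.07 (SE). BIRC5, the mitotic survivin, averaged 37.1 ± 1.78 TPM in A375 siGCDH, 59.1 ± 1.86 TPM in A375 siControl, 115 ± 3.95 TPM in SK-Hep1 siGCDH and 68.4 ± 3.3 TPM in SK-Hep1 siControl libraries (SD, n = 3 each), with a difference of -1.40 ± 0.08 (SE; limma adjusted p = 1.22e-07). In bulk RNA, fewer dividing cells and less of these mRNAs per cell cannot be told apart. DNA replication genes stood near the shares of all genes: of 40, 6 were higher (15%) and 13 lower (32.5%), beside 17.4% and 28.8%. Their median was -0.08, or 0.03 with median scaling. RRM2, of deoxynucleotide synthesis, fell by 0.39 in A375 and rose by 0.32 in SK-Hep1, MCM3, of the replicative helicase, fell in both lines (difference -0.45 ± 0.06 (SE)), and UHRF1, which recruits DNA methyltransferase, fell more in SK-Hep1 (difference 1.10 ± 0.07 (SE)).

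**Figure D4:**
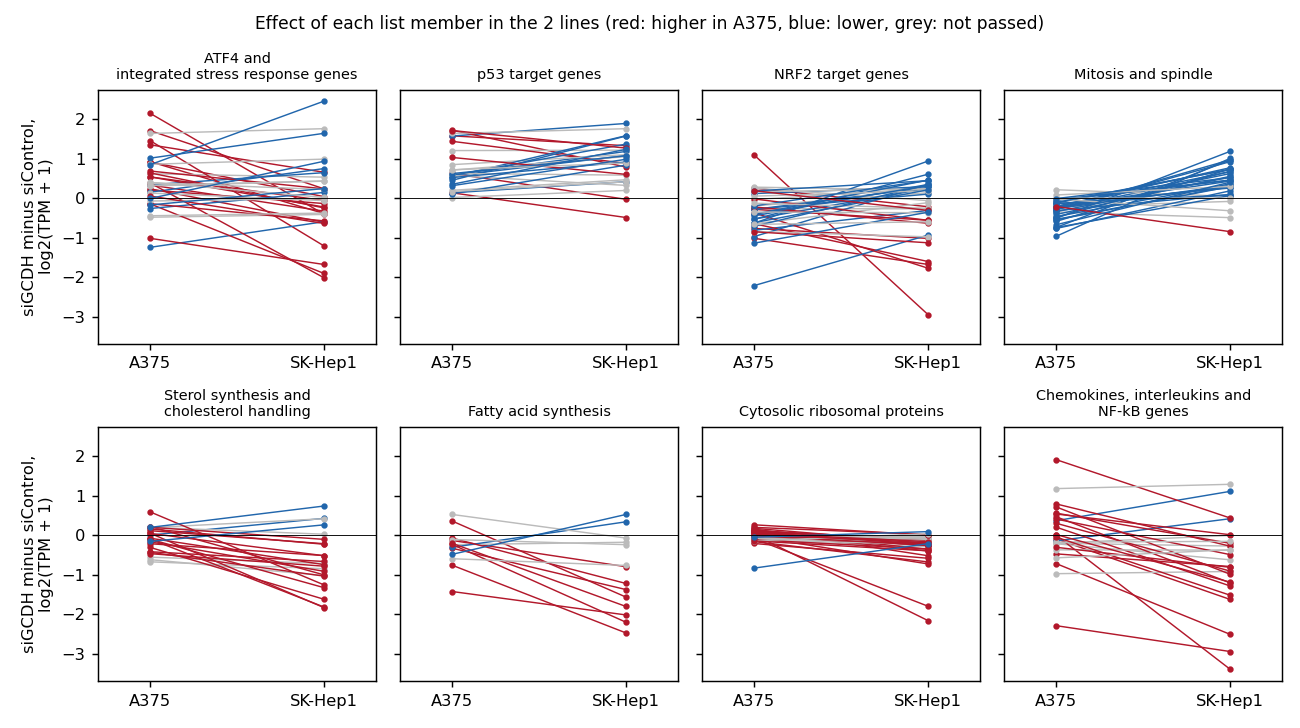
Change of each tested member of 8 gene lists with siGCDH (log2 scale), joined from A375 (left) to SK-Hep1 (right); red lines passed with a higher change in A375, blue lines with a lower one and grey lines did not pass. Mitosis lines slope up to SK-Hep1 for 29 of 36 genes in blue, most sterol and fatty acid lines slope down, and most p53 targets sit above 0 at both ends, PLK2 having fallen in SK-Hep1.

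p53 targets rose in both lines. Of 29 tested, 21 rose in A375 and none fell, and 27 rose in SK-Hep1 and 1 fell, against backgrounds of 18.2% and 36.0% of all genes rising. Median changes were 0.59 in A375 and 0.98 in SK-Hep1, and 7 were higher and 12 lower in the difference, with a median of -0.25 that was -0.15 with median scaling. CDKN1A, the cell-cycle inhibitor p21, had 474, 453 and 478 TPM in A375 siGCDH and 159, 159 and 151 TPM in A375 siControl libraries. In SK-Hep1 it had 221, 217 and 218 TPM with siGCDH and 84.6, 88.1 and 86.9 TPM with siControl. Knockdown libraries lay above controls in both lines, a little further in A375, with a difference of 0.25 ± 0.05 (SE; limma adjusted p = 0.00198). GADD45A, a growth-arrest gene, also rose more in A375 (1.72 beside 0.79), whereas ZMAT3, an RNA-binding p53 target, and BAX, the pore-forming apoptosis protein, rose more in SK-Hep1, with differences of -1.12 ± 0.13 (SE) and -0.59 ± 0.05 (SE). Among 20 pro-apoptotic genes 6 were higher and 4 lower. BAK1, which shares BAX's role, rose by 0.64 in A375 and fell by 0.50 in SK-Hep1, and BAD had a difference of 0.65 ± 0.11 (SE). Of 11 anti-apoptotic genes 2 were higher and 7 lower, the lower ones being 4 with median scaling. XIAP, a caspase inhibitor, fell by 0.99 in A375 and rose by 0.91 in SK-Hep1. BIRC3, a ubiquitin ligase of NF-kB signalling, was one of the 2 higher genes at 0.51 ± 0.09 (SE). It fell in both lines, with changes of -0.30 in A375 and -0.81 in SK-Hep1.

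ATF4, the transcription factor of the integrated stress response, rose in A375. It had 591, 593 and 601 TPM in A375 siGCDH and 315, 314 and 316 TPM in A375 siControl libraries. SK-Hep1 values were 392, 376 and 378 TPM with siGCDH and 369, 369.8 and 378 TPM with siControl. The A375 groups were far apart and the SK-Hep1 groups close, the change of 0.04 there not passing (limma adjusted p = 0.252), with a difference of 0.88 ± 0.04 (SE; limma adjusted p = 2.34e-08). ATF3, a stress-induced repressor, had 55.7, 57.4 and 51.2 TPM in A375 siGCDH and 11.6, 11.2 and 12 TPM in A375 siControl libraries. In SK-Hep1 the values were 4.98, 5.6 and 8.92 TPM with siGCDH and 9.25, 8.25 and 8.59 TPM with siControl. In SK-Hep1 1 knockdown library lay among the controls and the other 2 below them; the difference was 2.55 ± 0.21 (SE; limma adjusted p = 3.05e-06). CHAC1, a glutathione-degrading enzyme, and TRIB3, a pseudokinase, both ATF4 targets, had higher changes in A375, at 1.47 ± 0.26 (SE), or 0.94 with a pseudocount of 5, and 0.85 ± 0.08 (SE), and DDIT3, which encodes CHOP, rose in both lines and more in A375 (1.35 beside 0.66).

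Of 37 tested genes of the ATF4 and integrated stress list, 18 had a higher and 8 a lower change, with a median difference of 0.34, which was 0.18 without A375 siGCDH replicate 3 or without SK-Hep1 siControl replicate 1 and 0.20 with a pseudocount of 5. In this list 21 rose and 5 fell in A375, and 11 rose and 15 fell in SK-Hep1. Of its 7 amino acid transporters, 4 fell in SK-Hep1 and the other 3 did not pass there. SLC1A5, the glutamine carrier, had 163, 167 and 178 TPM in A375 siGCDH and 131, 129 and 128 TPM in A375 siControl libraries. The SK-Hep1 libraries had 25.2, 29 and 25.3 TPM with siGCDH and 108, 111 and 111 TPM with siControl. All SK-Hep1 knockdown libraries lay far below control and all A375 knockdown libraries above it, with a difference of 2.40 ± 0.08 (SE; limma adjusted p = 3.52e-09). SLC7A5, the large neutral amino acid carrier, fell by 1.91 in SK-Hep1, with a difference of 1.76 ± 0.08 (SE; limma adjusted p = 3.08e-08). Its A375 change of -0.14 did not pass with TPM as deposited (limma adjusted p = 0.065). That change passed with median scaling (limma adjusted p = 0.0428) and after quantile normalization (limma adjusted p = 0.0371). Aminoacyl-tRNA synthetases were divided, 8 higher and 5 lower of 20, with a median of -0.05 that was 0.06 with median scaling, CARS1 and IARS1 higher (1.02 ± 0.06 (SE) and 0.78 ± 0.06 (SE)) and KARS1, which charges tRNA with lysine, lower (-0.81 ± 0.05 (SE)). Among 25 ER chaperone and unfolded protein genes 12 were higher and 4 lower, with a median of 0.19 that was 0.41 without genes holding a word. HSPA5 and HSP90B1, the main ER chaperones, rose in A375 and fell in SK-Hep1, with differences of 0.95 ± 0.04 (SE) and 0.81 ± 0.05 (SE). CALR, a lectin chaperone, had the opposite sign of difference, with 156, 156 and 157 TPM in A375 siGCDH and 638, 624 and 657 TPM in A375 siControl libraries. SK-Hep1 libraries held 432, 457 and 447 TPM with siGCDH and 704, 726 and 724 TPM with siControl. It fell in both lines, by 2.03 in A375 and by 0.69 in SK-Hep1, and its 3′ UTR held 2 copies of the A375 words. The 3′ UTR of HSPA5, which rose in A375, held 1 copy.

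Most genes of sterol and fatty acid synthesis fell in SK-Hep1, and their changes in A375 were higher. Of 24 tested genes of sterol synthesis and cholesterol handling, 16 had a higher and 3 a lower change in A375, with a median difference of 0.36. In A375 4 rose and 8 fell, beside 18.2% and 16.9% of all genes. In SK-Hep1 4 rose and 18 fell, beside 36.0% and 17.8%. MSMO1, a sterol oxidase, had 29.7, 30.7 and 32.1 TPM in A375 siGCDH and 27.7, 26.1 and 24.8 TPM in A375 siControl libraries. In SK-Hep1 it had 25.1, 27.9 and 25.3 TPM with siGCDH and 51.7, 49.5 and 58.2 TPM with siControl. Knockdown libraries lay above controls in A375 and below them in SK-Hep1, with no overlap. The difference was 1.22 ± 0.10 (SE; limma adjusted p = 3.48e-06). Of 14 fatty acid genes 8 were higher and 2 lower, with a median of 0.63. In A375 9 of them fell and in SK-Hep1 11, beside 16.9% and 17.8% of all genes. FADS1, a desaturase, fell by 0.23 in A375 and by 2.20 in SK-Hep1, ACSL3, which activates fatty acids, fell by 0.20 in A375 and by 1.80 in SK-Hep1, and ELOVL1, an elongase, rose by 0.37 in A375 and fell by 1.56 in SK-Hep1.

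**Figure D5:**
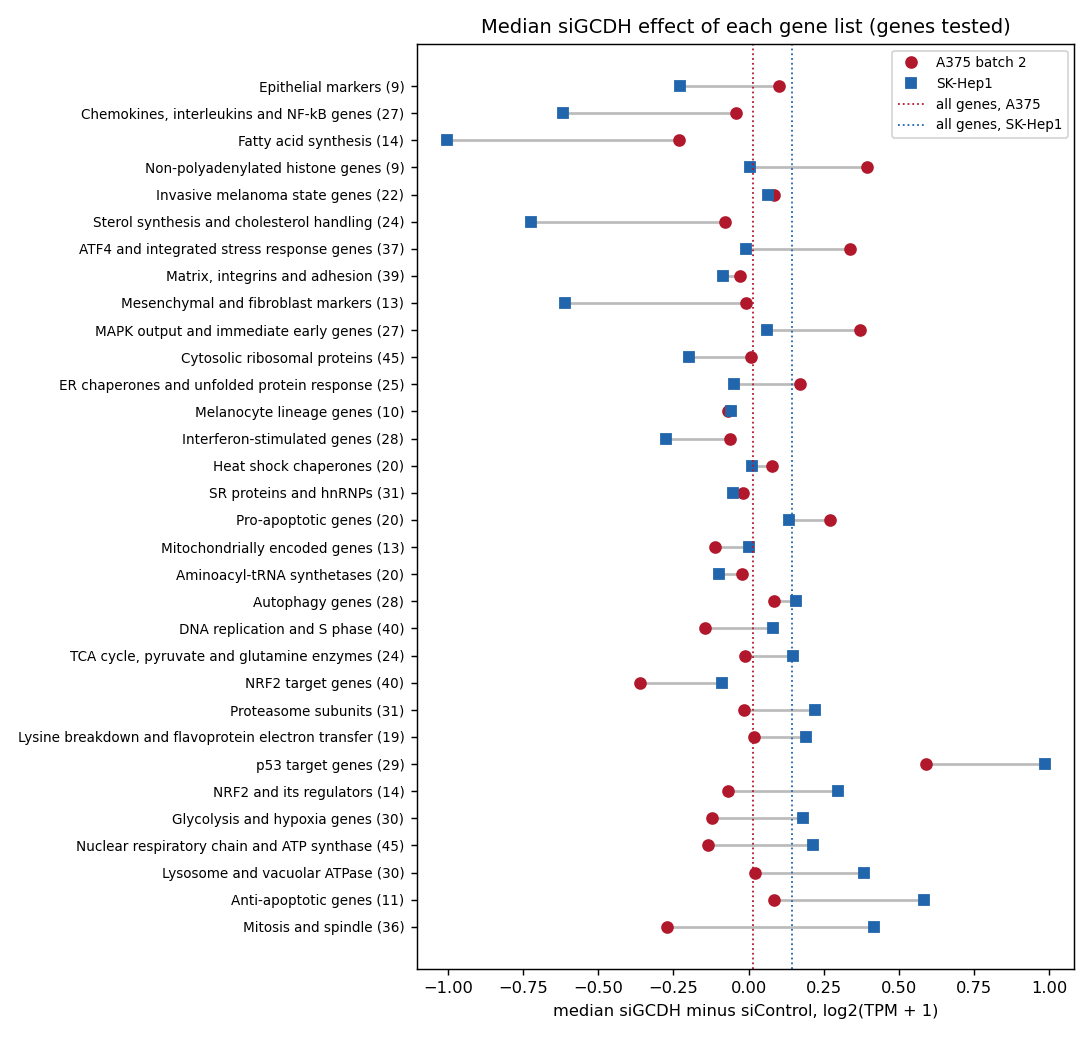
Median change with siGCDH (log2 scale) of each gene list with at least 5 tested genes, in A375 (red circles) and SK-Hep1 (blue squares), ordered by the median difference, with the number of tested genes in brackets and dotted lines at the medians of all genes (0.015 and 0.14). The sterol list lies at -0.72 in SK-Hep1 and the fatty acid list lower still, mitosis genes lie at -0.27 in A375 and 0.42 in SK-Hep1, and p53 targets are highest in both lines.

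Of 45 tested ribosomal protein genes, 30 had a higher and 2 a lower change in A375, with a median difference of 0.22. In A375 10 rose and 4 fell, beside 18.2% and 16.9% of all genes. In SK-Hep1 1 rose and 34 fell, beside 36.0% and 17.8%. This list depended on scaling: after quantile normalization 15 were higher and 8 lower (median 0.05), with 12 rising and 14 falling in SK-Hep1. RPL6 and RPS14 stood apart from the other members. RPL6 had 3985, 4319.9 and 4034 TPM in A375 siGCDH and 3977, 4005 and 4203 TPM in A375 siControl libraries. SK-Hep1 values were 847, 782 and 797 TPM with siGCDH and 3552, 3574 and 3701 TPM with siControl. All SK-Hep1 knockdown libraries lay far below control and the A375 groups overlapped, a difference of 2.17 ± 0.05 (SE; limma adjusted p = 7.17e-10). RPS14 fell by 1.79 in SK-Hep1 with a difference of 1.71 ± 0.07 (SE), whereas RPLP0, a stalk protein, had one of 0.48 ± 0.03 (SE). Ribosomal protein, ferritin, hnRNP, ENO1 and ATP5MC2 genes have processed copies in the genome among which reads can be divided, so their levels are uncertain to that extent.

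RNA-packaging and protein-turnover genes differed by list. Of 31 SR protein and hnRNP genes 7 were higher and 6 lower, with a median of 0.04; median scaling gave 15 and 4, with a median of 0.15. HNRNPC, an RNA-packaging protein of the nucleus, had 133, 132 and 125 TPM in A375 siGCDH and 857, 846 and 865 TPM in A375 siControl libraries. In SK-Hep1 the values were 481, 475 and 509 TPM with siGCDH and 688, 683 and 719 TPM with siControl. It fell in both lines and far more in A375, with a difference of -2.20 ± 0.05 (SE; limma adjusted p = 5.06e-10), and it fell in batch 1 too (-2.88). HNRNPA1, a splicing factor, fell more in SK-Hep1 (difference 0.75 ± 0.04 (SE)), and HNRNPH1 fell in A375 and rose in SK-Hep1 (difference -0.65 ± 0.08 (SE)). Proteasome subunits were 6 higher (19.4%) and 16 lower (51.6%) of 31, beside 17.4% and 28.8% of all genes, with a median of -0.20 beside -0.14. With median scaling 7 were higher and 12 lower (median -0.08), and 11 in place of 21 rose in SK-Hep1. Members with lower changes included PSMC5, PSMD1 and PSMD2, at -0.72 ± 0.05 (SE), -0.60 ± 0.05 (SE) and -0.68 ± 0.06 (SE). PSMC5 and PSMD1 fell in A375 and rose in SK-Hep1, while PSMD2 rose in both lines. Lysosome and vacuolar ATPase genes were 3 higher and 17 lower of 30, with a median of -0.36, and 21 of them rose in SK-Hep1, beside 36.0% of all genes. TFE3, a regulator of lysosome genes, fell by 1.05 in A375 and rose by 0.42 in SK-Hep1, ATP6AP2 rose by 1.03 in SK-Hep1, and ATP6V0B, a membrane subunit of the pump, had a higher change in A375 (1.41 ± 0.12 (SE)).

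Chemokine and NF-kB genes mostly had a higher change in A375. Of 27 chemokine, interleukin and NF-kB genes 17 had a higher and 2 a lower change in A375, with a median difference of 0.65. In A375 11 rose and 7 fell, beside 18.2% and 16.9% of all genes. In SK-Hep1 4 rose and 16 fell, beside 36.0% and 17.8%. CXCL1, a neutrophil chemokine, had 65.4, 68.7 and 67.4 TPM in A375 siGCDH and 73.9, 69 and 71.6 TPM in A375 siControl libraries. The SK-Hep1 libraries had 42.1, 41.6 and 46.2 TPM with siGCDH and 129, 133 and 143 TPM with siControl. All SK-Hep1 knockdown libraries lay far below control, while the A375 groups were close together, with a difference of 1.53 ± 0.08 (SE; limma adjusted p = 8.23e-08). NFKBIA, the inhibitor that NF-kB induces, rose by 0.21 in A375 and fell by 1.28 in SK-Hep1. Among 27 MAPK output and immediate early genes 13 were higher and 7 lower, with a median of 0.32, which was 0.16 without A375 siGCDH replicate 1 and 0.48 without A375 siGCDH replicate 2. In A375 17 of them rose, beside 18.2% of all genes. MYC, the growth regulator, averaged 14 ± 0.789 TPM in A375 siGCDH, 10.4 ± 0.821 TPM in A375 siControl, 39.7 ± 1.7 TPM in SK-Hep1 siGCDH and 103 ± 3.75 TPM in SK-Hep1 siControl libraries (SD, n = 3 each), with a difference of 1.75 ± 0.10 (SE; limma adjusted p = 1.45e-07). CCND1, cyclin D1, rose in both lines but more in SK-Hep1 (0.44 in A375, 1.58 in SK-Hep1).

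Of 39 matrix, integrin and adhesion genes, 19 had a higher and 9 a lower change in A375. In A375 9 of them rose and 11 fell, beside 18.2% and 16.9% of all genes. In SK-Hep1 9 rose and 18 fell, beside 36.0% and 17.8%. The median difference was 0.34, which was 0.09 with a pseudocount of 5 and 0.11 over members averaging 5 TPM or more. CCN2, a matricellular protein, had 76.1, 72.4 and 75.2 TPM in A375 siGCDH and 37.7, 37.2 and 32.8 TPM in A375 siControl libraries. SK-Hep1 libraries held 6.09, 7.08 and 7.43 TPM with siGCDH and 21.6, 22.1 and 21.9 TPM with siControl. It rose in A375 and fell in SK-Hep1 with no overlap of groups, a difference of 2.58 ± 0.11 (SE; limma adjusted p = 1.89e-08). THBS1, thrombospondin, fell by 1.23 in SK-Hep1 (difference 1.22 ± 0.09 (SE)), and SPARC rose by 0.83 in A375; its SK-Hep1 change of 0.04 did not pass, but was -0.08 with median scaling and 0.30 after quantile normalization, both past the test. Of 22 genes of the invasive melanoma state 11 were higher and 6 lower, with a median of 0.38. AXL, a receptor kinase of that state, averaged 264 ± 15.4 TPM in A375 siGCDH, 116 ± 1 TPM in A375 siControl, 225 ± 10.2 TPM in SK-Hep1 siGCDH and 192 ± 2.6 TPM in SK-Hep1 siControl libraries (SD, n = 3 each), with a difference of 0.95 ± 0.07 (SE; limma adjusted p = 7.67e-07).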

How the data were processed

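The authors deposited TPM values, 1 column per library over 60504 gene identifiers; the tools were RSEM 1.3.1, STAR 2.7.0d and cutadapt 2.3 with the hg38 build, per the submitters' processing notes. TPM keeps no read totals, so depth is unknown and no counting interval is given. Symbols were matched by identifier (41209 rows). Values were analysed as log2(TPM + 1) in limma 3.58.1 (R 4.3.3): 4 group means, eBayes with a mean-variance trend, two-sided tests, Benjamini-Hochberg adjustment over the 15548 genes averaging 1 TPM or more. Low genes have understated changes on this scale. A375 batch 1 and SKBR3-labelled libraries were fitted separately. The fit was also run on simulated data with independent noise for each gene. Those data held no shift of scaling between lines and no noise shared within a well, so they cannot speak to either.

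Members and gene lists (34) were chosen with earlier results of these data known. Named genes were GCDH, a panel of 8, the 12 largest differences per direction without overlap, with at least 1 TPM in each line and 5 TPM in one group, 5 per direction in genes under 1 TPM in one line, 6 per direction of opposite sign, and up to 3 members per list with the smallest adjusted p. Short RNAs and pseudogenes were skipped, and some named genes are not reported here. Words were searched in GENCODE 29 3′ UTRs of at least 50 bases with Python 3.11.15. Alternatives were pseudocounts, filters, scalings, eBayes settings, line weights, a replicate block, a joint fit of 18 libraries and leaving out libraries.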

Additional observations from a re-analysis of the deposited data

Results flagged for a closer look

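The change with siGCDH differed between the 2 lines, by a test of the difference itself, for 2698 genes with a higher change in A375 and 4485 with a lower one; 1491 of them had changes of opposite sign past the test in both lines. Of the 133 named genes 132 passed, DHTKD1 being the exception. GCDH had a difference of -0.74, HMOX1 of 4.04, PEG10 of 3.49, LINC03061 of 3.16, HMGA2 of 3.09, S1PR1 of 3.01 and SYNGR2 of 2.99 on the log2 scale. In the other direction TRPV2 had -3.85, PRR11 -3.14, PRR11-AS1 -2.90, DEPDC1 -2.81, OGFRL1 -2.73 and ZBTB18 -2.63. Groups of 3 libraries were too small to look for a library far from the others.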

How the results depend on the processing

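The counts of genes called higher and lower, of genes called in each line and of opposite changes stayed within 1.5 times their value under the alternatives run, apart from the genes that fell in A375, 1723 without genes holding a word against 2633 with them, and GCDH and the 132 named genes that passed kept their direction and their side of the threshold. With the replicate number within each line as a block, 2529 genes were higher and 4252 lower, and GCDH had an adjusted p of 0.0093 in limma; same-numbered libraries share only a number, since their deviations correlated at -0.05 to 0.09. Leaving out each library in turn gave 2405 to 2647 higher and 4048 to 4383 lower genes. Without genes holding a word, an alternative chosen after seeing the data, 2016 were higher and 3368 lower of 12637. List medians moved beyond their spread in 39 of the list and setting pairs; 4 of 32 changed sign with median scaling and 4 with quantile normalization, all of them near 0.

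Scaling was the choice that mattered most for direction: median scaling gave 3329 higher and 3610 lower genes, and quantile normalization 3349 and 3514. Depth is unknown, no second siRNA or time was used here, and the lowest of 5 GC classes of transcripts had a median difference of -0.27 beside -0.05 in the highest, and the part of GC content in the results was not tested.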

Other observations

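Interferon-stimulated genes fell in both lines more often than they rose. Of 28 tested, 9 fell and 3 rose in A375, beside 16.9% and 18.2% of all genes. In SK-Hep1 14 fell and 3 rose, beside 17.8% and 36.0%. In the difference 9 were higher and 3 lower, with a median of 0.09 that was 0.22 without A375 siControl replicate 2. ISG20, an RNA-degrading antiviral protein, and IRF1, a transcription factor of the interferon response, rose in A375 and fell in SK-Hep1, with differences of 1.31 ± 0.12 (SE) and 1.21 ± 0.13 (SE). IFIT2, which binds viral RNA, fell by 1.19 in A375, and its difference of -1.13 ± 0.12 (SE) was -0.56 with a pseudocount of 5. Heat shock chaperones were 7 higher and 3 lower of 20, with DNAJB1 at 0.83 ± 0.05 (SE), HSP90AB1 at 0.68 ± 0.03 (SE) and HSPA4 at -0.53 ± 0.05 (SE). Autophagy genes were 9 higher and 9 lower of 28, with a median of -0.07 that was 0.04 with median scaling. BECN1 and PIK3C3, which form one lipid kinase complex, fell in A375 (by 1.49 and 0.81) and rose in SK-Hep1 (by 0.45 and 0.50). The 3′ UTR of BECN1 held 1 A375 word, and that of PIK3C3 held 2 A375 words and 2 SK-Hep1 words.

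Lineage marker lists were mixed. SERPINA1, the hepatocyte marker with the highest level in SK-Hep1, averaged 5.72 ± 0.721 TPM with siGCDH and 5.05 ± 0.467 TPM with siControl in A375 and 34.9 ± 1.26 TPM with siGCDH and 9.59 ± 1.24 TPM with siControl in SK-Hep1 (SD, n = 3 each), with a difference of -1.62 ± 0.15 (SE; limma adjusted p = 8.23e-06). CYP2E1, another hepatocyte gene, went the other way, averaging 2.9 ± 0.653 TPM with siGCDH and 1.93 ± 0.119 TPM with siControl in A375 and 2.6 ± 0.283 TPM with siGCDH and 4.42 ± 0.856 TPM with siControl in SK-Hep1, with a difference of 0.98 ± 0.22 (SE). ENG, an endothelial marker, averaged 48.6 ± 3.01 TPM with siGCDH and 51.4 ± 5.08 TPM with siControl in A375 and 15.3 ± 0.552 TPM with siGCDH and 41.5 ± 0.698 TPM with siControl in SK-Hep1, with a difference of 1.31 ± 0.10 (SE). Of 9 tested epithelial markers, 4 fell and 2 rose in SK-Hep1: the keratin genes KRT8 and KRT18 fell by 1.29 and 1.28, with differences of 1.19 ± 0.08 (SE) and 0.46 ± 0.04 (SE), KRT7 and ELF3 fell too, EPCAM and CLDN7 rose, and KRT19 did not pass. Of 13 mesenchymal markers, 8 fell and 3 rose in SK-Hep1, VIM, ACTA2 and TAGLN being those that rose. LUM, a matrix proteoglycan, averaged 23.1 ± 1.14 TPM with siGCDH and 156 ± 11.3 TPM with siControl in SK-Hep1, with a difference of 2.55 ± 0.16 (SE). S100B, a melanocyte and glial calcium-binding protein, averaged 50.8 ± 3.1 TPM with siGCDH and 114 ± 2.99 TPM with siControl in A375 and was listed at 0 in all 6 SK-Hep1 libraries. Of 10 melanocyte genes 3 rose and 3 fell in A375; MITF, the lineage regulator, averaged 22.1 ± 2.40 TPM with siGCDH and 11.6 ± 0.513 TPM with siControl there, and SOX10 rose as well. RAB38, a melanosome transport protein, rose by 0.58 in A375 and fell by 1.69 in SK-Hep1. ERBB3 fell in both lines and further in SK-Hep1, with a difference of 0.71 ± 0.06 (SE). Of 9 tested histone genes, of a class whose mRNAs are mostly not polyadenylated, 4 had a higher and 2 a lower change in these poly(A)-selected libraries. Their median difference of 0.58 was -0.09 with a pseudocount of 0.1 and 0.09 without SK-Hep1 siControl replicate 1. H2AC6 and H2BC5 were among the higher ones, with differences of 2.18 ± 0.13 (SE) and 1.42 ± 0.13 (SE), and H1-2 and H2BC4 were the lower ones.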
